A study of Mus musculus with 2 samples.

Results

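Circadian clock genes were followed by symbol in single-cell libraries of mouse mammary stroma. The set holds 10 members, Per1, Per2, Per3, Dbp, Tef, Nr1d1, Nr1d2, Clock, Npas2 and Ciart, all found once in the list of 33696 genes that both libraries share. The study followed how mammary fibroblasts change as the gland develops. Stroma of C57BL/6 wildtype females was sorted as Lineage-negative and CD24-negative, so that blood, endothelial and most epithelial cells were left out, and was run on 10x Genomics GEM-X 3′ chemistry. The pubertal library came from glands at 4 weeks of age and the adult library from virgin glands at 9 weeks, and the labels give 2 females per condition. The labels also describe the pubertal and adult glands as coming from the same mouse, and how that fits with the ages is not explained in the sources used here. The study's methods give another pubertal age, another kit and another Cell Ranger version, and the labels and file headers were followed here. Both libraries carry replicate number 2, and another replicate was not analysed here. With 1 library per stage there was no test across samples, and every interval below covers counting error alone. The hour of collection is not given in the sources used here, so stage, library and hour of collection cannot be told apart.

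The circadian clock is a feedback loop of transcription that runs in nearly every cell of the body. CLOCK or its close relative NPAS2 pairs with BMAL1, listed here under its older symbol Arntl, binds E-boxes and drives the Per, Cry, Nr1d, Dbp and Ciart genes. The PER and CRY proteins and CIART then hold that activator back. The nuclear receptors REV-ERBα, encoded by Nr1d1, and REV-ERBβ, encoded by Nr1d2, repress Arntl and the other activator genes, while the PAR bZIP factors DBP and TEF pass the rhythm to output genes through D-boxes. In a tissue at a single hour the levels of Per, Dbp, Tef, Nr1d and Ciart transcripts follow the phase of the clock, and these 8 are called phase genes here, against the 2 activators Clock and Npas2.

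These elements can be read in the start regions of the members. RefSeq promoter windows of 300 bases (250 before and 50 after a start site, build GRCm38.p6) matched 9 of the 10 members with 13 windows, and Per2 had no entry. The perfect E-box CACGTG, which reads the same on both strands, lay in 4 of these windows, of Per1, Tef and Ciart, against 7.15% of all 32851 windows. The D-box TTATGTAA, searched on both strands, lay in the Per3 window alone, against 0.938% of all windows, and the E-prime box CACGTT, also searched on both strands, lay in the Nr1d1 window alone, against 4.68%. The palindromic D-box TTACGTAA, the receptor cores TAGGTCA and TGGGTCA and the cAMP response element TGACGTCA were in no member window, against 0.119%, 2.61%, 3.98% and 1.79% of all windows. The sites are shown because they are the elements through which the loop is wired. They are printed 5′ to 3′ on the strand of the gene, 30 bases each, with the motif in capitals.

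Per1 E-box, chr11:69098771-69098800, plus strand, in an intron, 166 bases before the start site: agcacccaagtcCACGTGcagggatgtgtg

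Per3 D-box, chr4:151044852-151044881, minus strand, upstream of the gene and inside Camta1, 205 bases before the start site: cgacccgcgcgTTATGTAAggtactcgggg

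Per3 D-box, chr4:151044805-151044834, minus strand, upstream of the gene and inside Camta1, 158 bases before the start site: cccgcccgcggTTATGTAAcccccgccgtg

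Nr1d1 E-prime box on the opposite strand, chr11:98775388-98775417, minus strand, upstream of the gene, 28 bases before the start site: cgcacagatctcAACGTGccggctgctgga

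Ciart E-box, chr3:95882327-95882356, minus strand, upstream of the gene, 116 bases before the start site: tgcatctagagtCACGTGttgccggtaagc

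Ciart E-box, chr3:95882269-95882298, minus strand, upstream of the gene, 58 bases before the start site: cgcagggggaggCACGTGcagaaccgcacg

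The third Ciart E-box lay 44 bases before the start site, partly inside the run printed last. The windows of Tef held 1 E-box each, 127 and 138 bases before their own start sites. These matches describe letters and not binding.

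The pubertal library held 21688 barcodes and the adult library 23183, with median depths of 11726 and 10781 UMIs, and 21534 and 22972 cells passed the filters (at least 500 genes and at most 10% mitochondrial UMIs). The libraries had 145 barcodes in common, 0.669% of the pubertal and 0.625% of the adult ones, and leaving these out moved no member's log2 ratio in Pdgfra+ cells by more than 0.021. Pdgfra, a receptor that marks fibroblasts, was found with at least 1 UMI in 18878 pubertal cells (87.7%) and 20999 adult cells (91.4%). The 5 fibroblast markers Pdgfra, Dcn, Lum, Col1a1 and Col1a2 summed to 30436 and 25433 CPM (UMIs of a gene per 1000000 UMIs) in these cells, while 5 immune markers summed to 2.02 and 1.80 CPM and 5 epithelial markers to 3.16 and 1.12 CPM.

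Within the Pdgfra+ cells 5 overlapping subsets were taken by marker UMIs. Pi16+ Dpp4+ cells numbered 13983 at puberty and 8853 in the adult library, which is 74.1% and 42.2% of Pdgfra+ cells. Cells with Gdf10 or Fmo2 numbered 7462 and 10066, cells with Thbs4 or Bmp5 927 and 3117, cells with at least 2 Fabp4 UMIs 1779 and 2553, and cells with Crabp1 289 and 2672. Crabp1 cells thus made up 1.53% of the pubertal and 12.7% of the adult Pdgfra+ cells. Mural cells, the contractile cells of vessel walls, were taken as cells without Pdgfra and with Myh11 or Rgs5, and numbered 783 and 457. All 7 mural markers (Myh11, Rgs5, Acta2, Notch3, Mcam, Tagln and Cspg4) were found in them, with a sum of 21716 CPM at puberty and 18648 CPM in the adult library. Of the 7, 3 were higher in the adult library and 4 lower. Rgs5 was at 396 and 1425 CPM and Acta2 at 7041 and 5244 CPM, so the balance of mural markers differed between the libraries. The part of this in the ratios of mural cells was not tested.

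In Pdgfra+ cells 9 of the 10 clock genes were higher in the adult library and Per3 was lower, but most differences were small. Npas2 alone was past 2-fold, with an adult over puberty ratio of 2.23 (95% interval 2.18 to 2.28). Of 10063 genes with a mean of at least 5 CPM, 4.34% were at least 2-fold higher and 1.84% at least 2-fold lower in the adult library. At a limit of 1.5-fold, Npas2 and Nr1d1 were higher and no member was lower, against 12.6% and 4.89% of those genes. A ratio above 1 was the rule in these libraries, found for 68.4% of those genes. The median log2 ratio of all of them was 0.14, against 0.22 for the 7 members with such a mean and 0.24 for all 10 members. Dbp, Nr1d1 and Ciart had means below 5 CPM and the other 7 members passed that filter. Of the 8 phase genes none lay on the same side of 1 in all 7 cell groups, against 43.0% of 8917 genes with a mean of at least 5 CPM in each group. Dbp, Nr1d1, Ciart and Per3 were below that mean in at least 1 group, so this background covers better measured genes than the 8. The count of phase genes on the same side was 1 under 7 of 13 alternatives, with Per3 in 5 of them and Tef in 2. Per3 rests on 16 and 10 UMIs in mural cells. The ratio of Npas2 was above 1 in all 7 groups, and so was that of Clock, but in Crabp1 cells the interval of Clock held 1.

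Clock, the founding activator, was at 101 CPM at puberty and 118 CPM in adult Pdgfra+ cells, a ratio of 1.16 (1.14 to 1.18). The ratio was 1.10 in Pi16+ Dpp4+ cells, 1.16 in Gdf10 or Fmo2 cells, 1.12 in Thbs4 or Bmp5 cells and 1.18 in both Fabp4 and mural cells. In Crabp1 cells Clock was at 140 CPM in both libraries, with a ratio of 1.001 (0.919 to 1.09), and in cells with Crabp1 as their single subset it was at 180 and 159 CPM, a ratio of 0.883 (0.768 to 1.02). Clock was thus nearly level between stages, and its differences between cell groups were larger than those between libraries. The highest level was in Crabp1 cells at puberty and in mural cells in the adult library (161 CPM), and the lowest was in Fabp4 cells in both (89.4 and 105 CPM). At puberty Crabp1 and mural cells, at 140 and 136 CPM, did not differ beyond counting error.

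Npas2, which can stand in for CLOCK as the partner of BMAL1, showed the largest difference of the set in Pdgfra+ cells. It was at 53.6 CPM at puberty and 120 CPM in adult Pdgfra+ cells, and 34.4% and 53.7% of these cells held at least 1 UMI of it. In Pi16+ Dpp4+ cells, where it was lowest of the 5 subsets, it was at 41.3 and 83.1 CPM, a ratio of 2.01 (1.95 to 2.07), the 1 member past 2-fold there against 3.09% of genes higher and 1.3% lower. Fabp4 cells had 55.6 and 110 CPM, and Gdf10 or Fmo2 cells 65.5 and 123 CPM, with ratios of 1.98 (1.87 to 2.11) and 1.87 (1.82 to 1.93). Thbs4 or Bmp5 cells had 106 and 182 CPM, a ratio of 1.71 (1.61 to 1.82). Crabp1 cells were already at 164 CPM at puberty and at 189 CPM in the adult library, a ratio of 1.15 (1.06 to 1.25). Within a library the level of Npas2 therefore followed the subset: Crabp1 cells stood above Pi16+ Dpp4+ cells by 3.96 times (3.66 to 4.28) at puberty and by 2.27 times (2.20 to 2.34) in the adult library. Mural cells were lowest, at 39.2 and 51.5 CPM, and their ratio of 1.31 (1.06 to 1.63) was below those of all subsets but the Crabp1 cells.

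**Figure D1:**
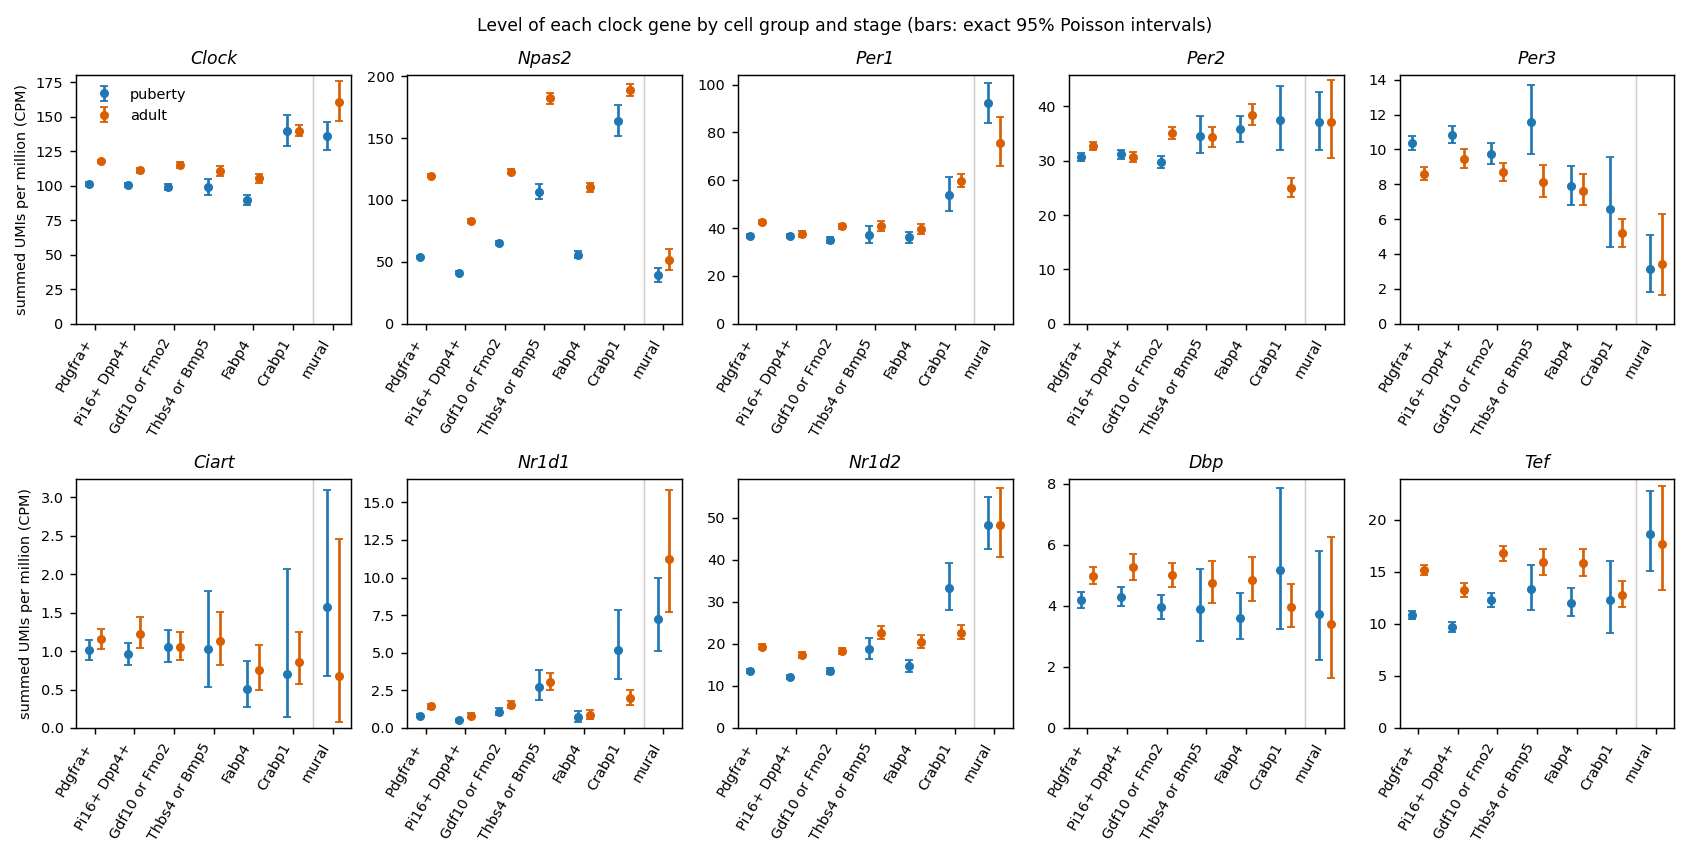
Each panel gives 1 clock gene, with the level in CPM on the y axis from 0 and the 7 cell groups on the x axis. Points are the pubertal (blue) and adult (orange) library and bars are exact 95% Poisson intervals. Npas2 is higher in the adult library in each group, while Nr1d1, Nr1d2, Per1 and Per3 differ more between mural and Pdgfra+ cells than between libraries.

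Per1, a repressor that is also induced quickly by hormones and stress, was at 36.6 CPM at puberty and 42.7 CPM in adult Pdgfra+ cells, a ratio of 1.17 (1.13 to 1.20). In Pi16+ Dpp4+ cells it was at 36.7 and 37.5 CPM, an interval of 0.982 to 1.06 for the ratio. In mural cells it was at 92.2 and 75.7 CPM, so that the adult library was the lower one there, with a ratio of 0.821 (0.697 to 0.965). Mural cells stood highest in both libraries and Crabp1 cells second, at 54.0 and 59.7 CPM, while the other groups lay between 34.9 and 42.7 CPM.

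Per2, the repressor whose loss shortens and then abolishes the rhythm in mice, was at 30.7 and 32.7 CPM in Pdgfra+ cells, a ratio of 1.07 (1.03 to 1.10). It was higher in adult Gdf10 or Fmo2 cells, at 29.7 and 35.1 CPM with a ratio of 1.18 (1.13 to 1.24). It was lower in adult Crabp1 cells, at 37.5 and 25.0 CPM with a ratio of 0.666 (0.561 to 0.795). Crabp1 cells thus held the highest level of Per2 at puberty and the lowest in the adult library. At puberty the Poisson intervals of all neighbouring groups overlapped, and in the adult library Crabp1 cells stood apart from all others. In Pi16+ Dpp4+, Thbs4 or Bmp5 and mural cells the ratio was 0.983, 0.992 and 1.002, and each interval held 1.

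Per3, a PER protein with a lesser part in the core loop, was the 1 member lower in adult Pdgfra+ cells, at 10.3 and 8.60 CPM with a ratio of 0.831 (0.784 to 0.881). It was lower in all 5 subsets, from 0.705 (0.575 to 0.868) in Thbs4 or Bmp5 cells to 0.970 (0.807 to 1.17) in Fabp4 cells. Mural cells held the lowest level, at 3.14 and 3.41 CPM, from 16 and 10 UMIs. The gene overlaps Camta1 on the same strand, and Camta1 moved the other way, at 49.1 and 69.6 CPM in Pdgfra+ cells.

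Ciart, which binds to the activator complex and represses it, was near the limit of detection. It was at 1.01 CPM from 240 UMIs in pubertal and 1.15 CPM from 285 UMIs in adult Pdgfra+ cells, and its ratio of 1.14 had an interval of 0.953 to 1.35. In mural cells 8 and 2 UMIs were counted, and no difference was detectable at this depth. Its windows held the most E-boxes of the set, 3 as described above.

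Nr1d1 was sparse in fibroblasts and higher in mural cells. It was at 0.824 CPM from 195 UMIs in pubertal Pdgfra+ cells and 1.43 CPM from 355 UMIs in adult ones, a ratio of 1.74 (1.46 to 2.08). With each cell thinned to 3000 UMIs the log2 ratio was 0.47 in place of 0.80, a move beyond counting error. Mural cells were at 7.26 CPM from 37 UMIs and 11.2 CPM from 33 UMIs, with a ratio of 1.55 (0.939 to 2.55). The level in mural cells was 8.81 times (6.02 to 12.6) that of Pdgfra+ cells at puberty and 7.84 times (5.31 to 11.2) in the adult library. Thra, which overlaps Nr1d1 on the opposite strand, was at 234 and 226 CPM in mural cells and 143 and 152 CPM in Pdgfra+ cells, and the strand setting of the counting is not given in the sources used here.

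Among the fibroblast subsets Nr1d1 was lowest in Pi16+ Dpp4+ cells, at 0.5003 and 0.810 CPM, and at 1.09 and 1.55 CPM in Gdf10 or Fmo2 cells. Thbs4 or Bmp5 cells were at 2.72 and 3.03 CPM. After thinning to 3000 UMIs, the share of cells with an Nr1d1 UMI was 0.152% and 0.193% in Pi16+ Dpp4+ cells. The shares were 0.461% and 0.454% in Gdf10 or Fmo2 cells, 1.32% and 0.550% in Thbs4 or Bmp5 cells and 0.282% and 0.118% in Fabp4 cells. Each of these shares came from at most 45 cells. Crabp1 cells were at 5.19 CPM from 22 UMIs at puberty and 2.00 CPM from 65 UMIs in the adult library, a ratio of 0.386 (0.235 to 0.657), with a mean below the 5 CPM that the background of all genes requires. The direction in Crabp1 cells was therefore the opposite of that in Pdgfra+ cells as a whole. With each cell thinned to 3000 UMIs, 0.347% of pubertal and 0.754% of adult Crabp1 cells held an Nr1d1 UMI, against 5.88% and 1.98% as counted, so the shares after thinning, the pubertal one from a single cell, went against the CPM and no order is read from them.

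Nr1d2, the sister receptor, was more evenly measured. It was at 13.5 CPM at puberty and 19.3 CPM in adult Pdgfra+ cells, a ratio of 1.43 (1.37 to 1.497), and its ratio in Pi16+ Dpp4+, Gdf10 or Fmo2 and Fabp4 cells lay between 1.36 and 1.44. In Crabp1 cells it was at 33.3 and 22.7 CPM, a ratio of 0.683 (0.569 to 0.823). In mural cells it was at 48.4 CPM in both libraries, with a ratio of 0.999 (0.807 to 1.23). No difference of Nr1d2 between the libraries was thus detectable in mural cells beyond counting error. Their level was 3.58 times (3.14 to 4.08) that of Pdgfra+ cells at puberty and 2.50 times (2.10 to 2.96) in the adult library. In both libraries mural cells were highest, Crabp1 cells came next and Pi16+ Dpp4+ cells were lowest, although adult Crabp1 and Thbs4 or Bmp5 cells, at 22.7 and 22.6 CPM, did not differ beyond counting error.

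Dbp, an output factor that swings widely over the day in many tissues, was low in all groups. It was at 4.19 CPM at puberty and 4.98 CPM in adult Pdgfra+ cells, a ratio of 1.19 (1.09 to 1.29). The 7 cell groups spanned 3.60 to 5.19 CPM at puberty and 3.41 to 5.27 CPM in the adult library, and the Poisson intervals of all neighbours in these orders overlapped. After thinning, 1.40% of pubertal and 1.34% of adult Pdgfra+ cells held a Dbp UMI. Dbp overlaps Sphk2 on the opposite strand, which was at 3.22 and 3.81 CPM in the same cells.

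Tef, a related PAR bZIP factor, was at 10.9 and 15.2 CPM in Pdgfra+ cells, a ratio of 1.40 (1.33 to 1.47). It was higher in the adult library by 1.37 times in both Pi16+ Dpp4+ and Gdf10 or Fmo2 cells and by 1.32 times in Fabp4 cells. In Crabp1 cells it was at 12.3 and 12.8 CPM and in mural cells at 18.6 and 17.7 CPM, and both ratios had intervals that held 1.

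The phase genes were also counted by direction in each cell group. Of the 8, the adult library was higher for 7 in Pdgfra+ cells as a whole, 6 in Pi16+ Dpp4+ cells, 7 in Gdf10 or Fmo2 cells, 6 in Thbs4 or Bmp5 cells and 7 in Fabp4 cells. In Crabp1 cells and in mural cells 3 of the 8 were higher. Among all genes with a mean of at least 5 CPM, 61.6% were higher in adult Crabp1 cells and 65.6% in adult mural cells. The share was 68.8% in Pi16+ Dpp4+ cells, 67.7% in Gdf10 or Fmo2 cells and 63.4% in both Thbs4 or Bmp5 and Fabp4 cells. The counts in the larger subsets were thus near or above that background, and those in Crabp1 and mural cells were below it in the main setting. The mural count varied with the setting. It was 5 of 8 with at least 3 mural markers, and also without cells above the 99th percentile of genes. It was 4 of 8 without mural cells with epithelial UMIs, 2 of 8 after thinning and 1 of 8 with TMM scaling. After thinning to 3000 UMIs the counts were 4 of 8 in Thbs4 or Bmp5 cells and 5 of 8 in Fabp4 cells, and the same 2 counts were found in cells that met exactly 1 subset rule. The median log2 ratio of the 8 was 0.24 in Pdgfra+ cells, 0.32 in Pi16+ Dpp4+ cells, -0.37 in Crabp1 cells and -0.037 in mural cells. In each cell group 5 of the 8 passed the 5 CPM filter that the background requires. Intervals lay wholly below 1 for 3 of the 8 in Crabp1 cells and for 1 of the 8 in mural cells. None lay wholly above 1 in either group, so most directions there were within counting error. The cell groups share members, since Pdgfra+ cells include all 5 subsets, so these counts are not independent.

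**Figure D2:**
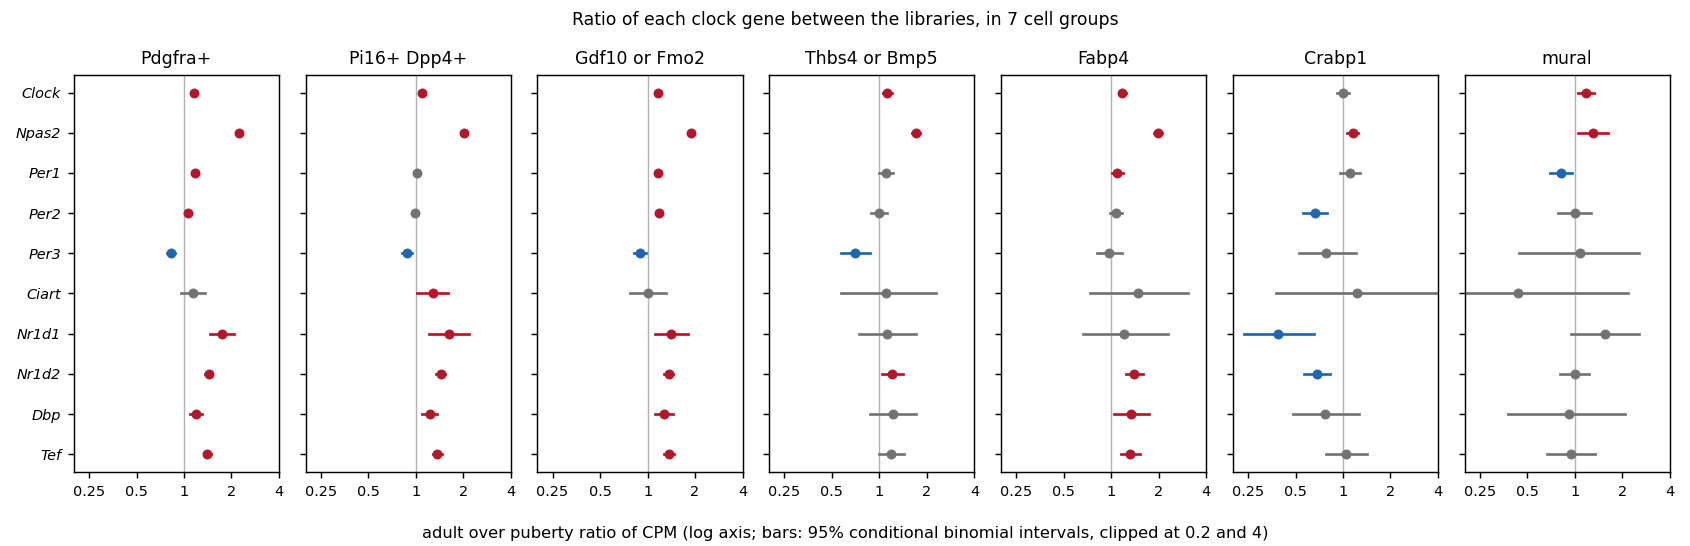
Each panel gives 1 cell group, with the adult over puberty ratio of CPM on a log x axis and the 10 clock genes in rows. Bars are 95% conditional binomial intervals, red where wholly above 1, blue where wholly below 1 and grey where they hold 1, and intervals are clipped at 0.2 and 4. Per2, Nr1d1 and Nr1d2 are blue in Crabp1 cells, Per1 is blue in mural cells, and Npas2 is red in all 7 panels.

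The other cells in the mural group differed between the libraries, and their part in the result was not tested. The 5 epithelial markers (Epcam, Krt8, Krt18, Krt14 and Krt5) summed to 34.9 CPM at puberty and 610 CPM in the adult mural cells, all 5 higher in the adult library. The 5 fibroblast markers, with Pdgfra at 0 by the rule, summed to 3361 and 1130 CPM in the same cells. Without cells holding at least 2 epithelial UMIs, which left 776 and 427 mural cells, Per1 was at 92.8 and 80.7 CPM, a ratio of 0.869 whose interval of 0.735 to 1.03 held 1. Nr1d2 was then at 48.9 and 51.9 CPM (ratio 1.06, 0.852 to 1.31) and Nr1d1 at 7.32 and 12.1 CPM (1.65, 0.990 to 2.73). Mural cells in which at least 3 of the 7 mural markers were found gave a ratio of 0.812 (0.685 to 0.961) for Per1 and 0.988 (0.793 to 1.23) for Nr1d2. In Crabp1 cells, where Nr1d1 and Nr1d2 were lower in the adult library, the 7 mural markers summed to 217 and 63.3 CPM. In Pdgfra+ cells they summed to 93.1 and 55.6 CPM. The sum was lower in the adult library in all 5 subsets, with 480 and 121 CPM in Thbs4 or Bmp5 cells and 688 and 258 CPM in Fabp4 cells. In those cells Nr1d2 was higher in the adult library, with ratios of 1.20 and 1.40, and the intervals of Nr1d1 held 1. The part of mural RNA in these ratios was not tested.

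Because the subsets overlap and their shares differ between stages, the members were also read in cells that met exactly 1 of the 5 subset rules. Nr1d1 was then at 0.361 and 0.640 CPM in Pi16+ Dpp4+ cells, a ratio of 1.77 (1.11 to 2.83). In Gdf10 or Fmo2 cells it was at 2.08 and 2.02 CPM, in Thbs4 or Bmp5 cells at 4.38 and 3.66 CPM, and in Crabp1 cells at 6.31 and 2.02 CPM from 8 and 22 UMIs. The Pi16+ Dpp4+ cells, where Nr1d1 was among the lowest, made up the larger share of the pubertal library, and the ratio of 1.74 in Pdgfra+ cells as a whole stands beside ratios of 0.975 (0.674 to 1.42) and 0.835 (0.408 to 1.84) in the Gdf10 or Fmo2 and Thbs4 or Bmp5 cells. With equal weight given to each of the 5 subsets the log2 ratio of Nr1d1 was -0.64 in place of 0.80, which rests on the 100 pubertal cells with Crabp1 as their single subset.

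Npas2 in these cells was at 36.9 and 55.8 CPM in the Pi16+ Dpp4+ subset, a ratio of 1.51 (1.45 to 1.59), and at 43.8 and 108 CPM in the Fabp4 subset, a ratio of 2.47 (2.14 to 2.86). The ratio was 1.25 (1.19 to 1.31) in Gdf10 or Fmo2 cells and 1.73 (1.53 to 1.95) in Thbs4 or Bmp5 cells. Crabp1 cells held 219 and 205 CPM, a ratio of 0.940 (0.829 to 1.07). The difference in Npas2 was therefore found in 4 of the 5 subsets taken apart, and with equal weight per subset its log2 ratio was 0.44 in place of 1.16.

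Per2 went in different directions in these cells. It was at 21.8 and 35.8 CPM in the Gdf10 or Fmo2 subset, a ratio of 1.64 (1.48 to 1.82). It was at 30.6 and 27.8 CPM in Pi16+ Dpp4+ cells, a ratio of 0.908 (0.856 to 0.964), and at 33.1 and 18.9 CPM in Crabp1 cells, a ratio of 0.570 (0.407 to 0.814). Nr1d2 was higher in adult Pi16+ Dpp4+ cells by 1.47 times (1.36 to 1.60), level in Gdf10 or Fmo2 cells at 1.03 (0.910 to 1.17), and lower in adult Crabp1 cells at 0.624 (0.457 to 0.868).

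**Figure D3:**
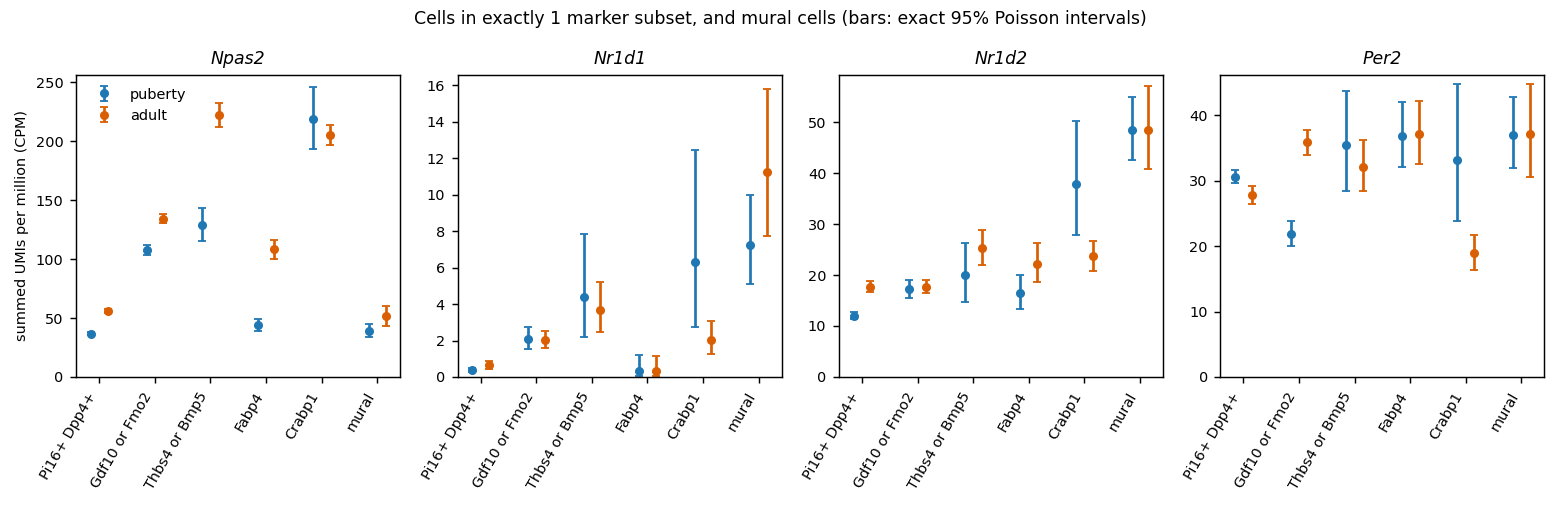
Level in CPM on the y axis from 0, for Npas2, Nr1d1, Nr1d2 and Per2, in cells that met exactly 1 of the 5 subset rules and in mural cells. Points are the pubertal (blue) and adult (orange) library and bars are exact 95% Poisson intervals. Per2 is higher in adult Gdf10 or Fmo2 cells (21.8 and 35.8 CPM) and lower in adult Crabp1 cells (33.1 and 18.9 CPM).

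In single cells the phase genes were found too rarely to give each cell a phase. After thinning to 3000 UMIs, 73.3% of 18542 pubertal and 69.3% of 20573 adult Pdgfra+ cells held no UMI of any of the 8. In mural cells the share was lower, 55.2% of 727 and 56.7% of 374 cells. Per1, the phase gene found in most cells, was in 10.2% and 12.2% of thinned Pdgfra+ cells and in 22.8% and 20.6% of thinned mural cells, against 34.0% and 35.7%, and 41.4% and 36.8%, as counted. Nr1d2 was in 3.82% and 5.49% of thinned Pdgfra+ cells and in 14.7% and 12.03% of thinned mural cells. Clock transcripts were found in all the cell groups read here, so none served as a group without them, and the share that free RNA gives was not measured. Correlations between members across thinned Pdgfra+ cells lay between -0.020 and 0.054, which is too weak in counts this sparse to be read as a finding.

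The rest of the clock was read from a list of 20 genes, of which 18 had a mean of at least 5 CPM in Pdgfra+ cells. Of these 18, 2 were at least 2-fold higher in the adult library (Bhlhe41 and Hlf), 1 at least 2-fold lower (Rorb) and 15 lay between, against the 4.34% and 1.84% of all genes given above. The median log2 ratio of the 18 was 0.076, and that of all genes 0.14.

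Arntl, the partner of CLOCK and NPAS2 and the gene that the REV-ERB receptors repress, was at 135 CPM at puberty and 84.6 CPM in adult Pdgfra+ cells, a ratio of 0.627 (0.616 to 0.638). It was lower in all 5 adult subsets, from 0.631 in Pi16+ Dpp4+ cells to 0.881 in Thbs4 or Bmp5 cells, with 0.847 (0.758 to 0.9502) in Crabp1 cells. In mural cells it was at 71.8 and 70.9 CPM, a ratio of 0.988 (0.829 to 1.17). Its relative Arntl2 went the other way in fibroblasts, at 6.71 and 8.71 CPM, but was at 51.8 and 25.9 CPM in mural cells.

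Among the repressors, Cry2 was at 118 and 76.6 CPM in Pdgfra+ cells, a ratio of 0.650, and at 105 and 123 CPM in mural cells, a ratio of 1.17 (1.02 to 1.34). Cry1 was nearly level, with a ratio of 1.05 in Pdgfra+ cells. Bhlhe40 and Bhlhe41, which compete with the activator for E-boxes, were higher in adult Pdgfra+ cells, at 101 and 160 CPM and at 3.82 and 12.3 CPM. Bhlhe41 was also higher in adult mural cells, at 5.69 and 26.9 CPM, whereas Bhlhe40 had 107 and 109 CPM there. Cipc, an inhibitor of CLOCK, had a ratio of 1.34 in Pdgfra+ cells and 0.981 in mural cells.

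Hlf, the third PAR bZIP factor beside Dbp and Tef, was at 6.24 and 12.8 CPM in Pdgfra+ cells, a ratio of 2.05 (1.92 to 2.18). It was lower in adult Crabp1 cells, at 38.0 and 17.2 CPM with a ratio of 0.453 (0.379 to 0.543), as Nr1d1, Nr1d2 and Per2 were. Nfil3, which binds the same D-boxes and represses through them, was at 147 and 105 CPM in Pdgfra+ cells and at 151 and 76.0 CPM in mural cells. Of retinoid-related receptors that activate Arntl, Rora had a ratio of 1.62 in Pdgfra+ and 1.74 in mural cells, and Rorb one of 0.371 and 0.442.

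The casein kinases that mark PER proteins for decay had ratios of 1.06 (Csnk1d) and 1.08 (Csnk1e) in Pdgfra+ cells, and Csnk1d one of 0.759 (0.669 to 0.859) in mural cells. The ubiquitin ligase gene Btrc, which acts on PER, had a ratio of 1.87. Of 4 output genes, Nampt (192 and 140 CPM) and Noct (111 and 96.5 CPM) were lower in adult Pdgfra+ cells, with ratios of 0.730 and 0.869, and Wee1 and Usp2 had ratios of 0.913 and 0.966. Timeless and Fbxl21 had means below 5 CPM.

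**Figure D4:**
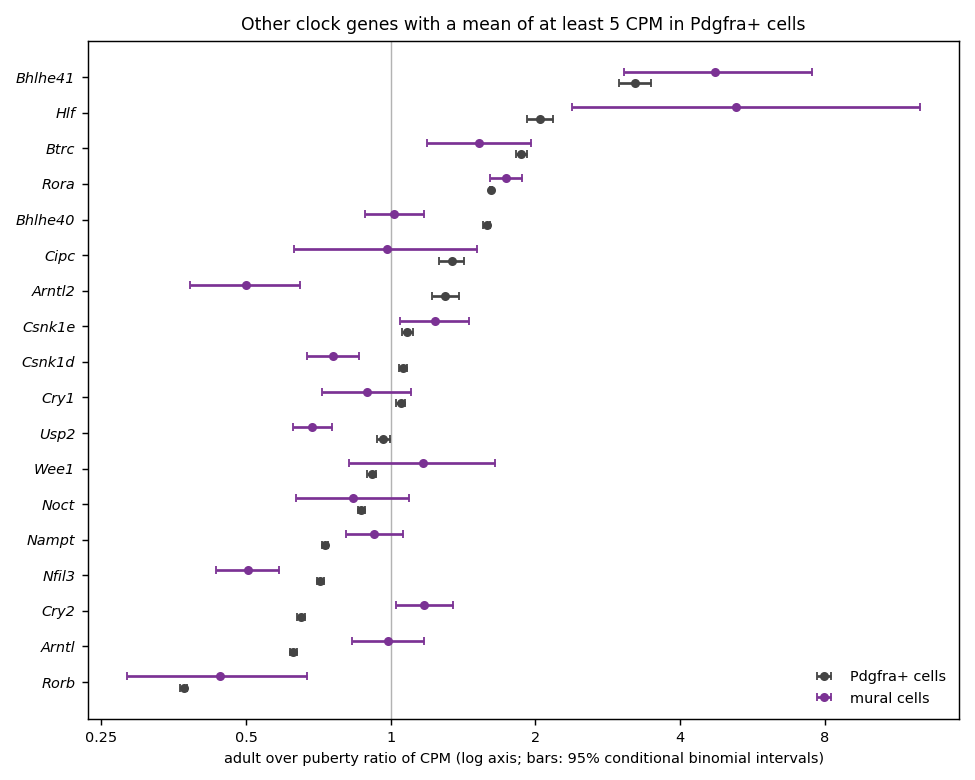
Adult over puberty ratio of CPM on a log x axis for the 18 other clock genes with a mean of at least 5 CPM in Pdgfra+ cells, ordered by their ratio there. Grey points are Pdgfra+ cells, purple points are mural cells and bars are 95% conditional binomial intervals. Arntl and Cry2 lie well below 1 in Pdgfra+ cells (0.627 and 0.650) but not in mural cells (0.988 and 1.17), while Bhlhe41 and Rora lie above 1 in both.

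Genes that respond to hormones and stress, signals that also act on Per1, were read beside the clock. Of 10 glucocorticoid-induced genes none was past 2-fold in Pdgfra+ cells, against 4.34% of all genes higher and 1.84% lower. Fkbp5 had the highest ratio there, 1.60, and Mt2 the lowest, 0.649. In mural cells 8 of these 10 genes were lower in the adult library, with a median log2 ratio of -0.48. Among all genes with a mean of at least 5 CPM there, 34.4% were lower and the median was 0.16. The sum of fibroblast markers in mural cells was also lower in the adult library, as given above. Its part in these ratios was not tested. Sgk1 and Mt2 were at least 2-fold lower in adult mural cells and Fkbp5 at least 2-fold higher, against 2.19% and 7.77% of all genes. Of 12 immediate-early and heat shock genes 3 were at least 2-fold higher in adult Pdgfra+ cells, against 4.34% of all genes. Hspa1b led them at 36.8 and 295 CPM (ratio 8.03, 7.86 to 8.21), and Atf3 had the lowest ratio of the 12, 0.735. These genes respond to handling of cells as well as to hormones, and their part in the differences of the clock genes was not tested.

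The profiles of 4 members over 12 sums (5 subsets of cells that met 1 rule alone and mural cells, in 2 libraries) were compared with 10477 genes on the log2(CPM + 1) scale. The sums share libraries and depth, and the genes named are the best of 10477 over 12 sums, so the correlations are a description. Nr1d1 and Dbp had means of 3.39 and 3.88 CPM over these sums, below the 5 CPM asked of the other genes. Some of their sums held few UMIs, with 2 of Nr1d1 in each Fabp4 sum and 4 of Dbp in the pubertal Crabp1 sum. The 3 genes most like Clock were Tent4b, Srpk2 and Gapvd1, with Pearson r of 0.981, 0.968 and 0.960. Those most like Nr1d1 were Trps1, Hmgn5 and Amd1, at 0.952, 0.951 and 0.951. Those most like Dbp were Eif4b, Ctif and Sntg1, at 0.904, 0.869 and 0.843. Per2 had no close match, and its best were Hbp1, Trak1 and 2410006H16Rik at 0.786, 0.710 and 0.692. Among the members themselves, Nr1d1 and Nr1d2 had an r of 0.844 over these sums and Per1 and Per3 one of -0.923.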

How the data were processed

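The deposited files hold raw UMI counts per gene and cell, which the authors made with Cell Ranger 8.0.1 on mm10, per the file headers and the submitters' processing notes. The kit follows the labels. Cells with fewer than 500 genes or over 10% mitochondrial UMIs were left out, and doublets were kept in the main values. UMIs were summed over each cell group and scaled to CPM, with exact Poisson 95% intervals for levels, conditional binomial intervals for ratios and Clopper-Pearson intervals for shares. Per cell shares were also taken after thinning to 3000 UMIs. A gene was counted as apart past 2-fold, with a mean of at least 5 CPM for the background. PCR duplicates are removed by UMIs, and intervals cover counting error alone. Gene positions are from GENCODE M21 on GRCm38 and promoters from RefSeq.

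Named were all 10 members, every other clock gene with a mean of at least 5 CPM in Pdgfra+ cells, the largest ratio each way of the accompanying lists, and the 3 genes most like each of Dbp, Nr1d1, Per2 and Clock. Other genes were named after their values were seen, and some genes of the clock list are not reported here. Members and lists were chosen with earlier results of these data known. Alternatives were TMM scaling (edgeR 4.0.16), other cell filters, Scrublet (scanpy 1.11.5), mean CPM over cells, thinning, equal subset weights and, added after seeing the data, 3 settings on mural and epithelial markers. Scrublet at its own threshold marked 1 pubertal and 696 adult cells, so the highest scores were left out at a fixed rate instead (8.68% and 9.27%). The ratio code was tested on simulated data.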

Additional observations from a re-analysis of the deposited data

Results flagged for a closer look

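For 4 members the adult over puberty ratio had an interval wholly above 1 in a cell group and wholly below 1 in another, and the difference between cell groups was not tested, since each stage has 1 library. Per1 had a ratio of 1.17 in Gdf10 or Fmo2 cells and 0.821 in mural cells. Per2 had 1.18 in Gdf10 or Fmo2 cells and 0.666 in Crabp1 cells. Nr1d1 had 1.62 in Pi16+ Dpp4+ cells and 0.386 in Crabp1 cells, and Nr1d2 had 1.44 and 0.683 in the same groups. The Gdf10 or Fmo2, Pi16+ Dpp4+ and Crabp1 groups share cells.

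The same held for 5 other clock genes. Hlf had a ratio of 5.21 in mural cells, with a wide interval of 2.38 to 12.6, and 0.453 (0.379 to 0.543) in Crabp1 cells. Its mural ratio was not read under the other definitions of mural cells. Cry2 had 1.17 in mural cells and 0.627 in Gdf10 or Fmo2 cells. Arntl2 had 1.39 in Pi16+ Dpp4+ cells and 0.5003 in mural cells, and Csnk1d had 1.07 in Gdf10 or Fmo2 cells and 0.759 in mural cells. Cry1 had 1.17 in Fabp4 cells and 0.973 in Pi16+ Dpp4+ cells, where the interval ended at 0.999.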

How the results depend on the processing

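The count of 1 member at least 2-fold apart in Pdgfra+ cells was the same under 10 of 12 alternatives. Dropping the filter on low values, which is among the 10, could not change the count, since the members were counted without that filter. It was 0 with equal weight per marker subset and 2, with Nr1d1 added, at a 1.5-fold limit. The count of 0 phase genes on the same side of 1 in all 7 cell groups stayed at 0 under 6 alternatives and was 1 under 7. That gene was Per3, lower everywhere, after thinning, at no more than 5% mitochondrial UMIs, with TMM scaling, with 1 UMI more of each marker and without mural cells with epithelial UMIs, and Tef, higher everywhere, without the cells above the 99th percentile of genes and in mural cells with at least 3 mural markers. Of the members' log2 ratios in Pdgfra+ cells, 75 of 100 values moved by less than counting error, and 21 moved further without a change of sign. The sign changed in 5 values: Ciart was -0.021 with equal weight per subset, which is within counting error, Per2 was -0.051 with TMM scaling and -0.056 with equal weight per subset, Dbp was -0.060 after thinning and Nr1d1 was -0.64 with equal weight. TMM scaling moved every ratio in Pdgfra+ cells by -0.14 on the log2 scale. No paired analysis was possible because each stage has 1 library, and leaving out a replicate was not possible for the same reason. Members below 5 CPM rest on few UMIs in the smaller cell groups, where the intervals are wide.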
